A study of Homo sapiens with 2 samples.

Results

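The genes described here are 39 genes of the Fanconi anemia (FA) pathway and of homologous recombination (HR), profiled in HepG2 cells after treatment with hawk tea extract (HTE). They were taken by name and matched to the array through the RefSeq transcript of each probe. The rule for membership used no measured value, but the 39 genes were chosen with earlier results of these data known. All 39 had a probe well above background on both arrays, among 15632 named genes measured on at least 1 array. HepG2 is an established human hepatoma line that keeps many hepatocyte functions. One array held RNA from HepG2 cells kept for 24 h with the vehicle dimethyl sulfoxide (DMSO, 1 per mille), and the other RNA from HepG2 cells kept for 24 h with HTE, an ethanol extract of the leaves dissolved in DMSO. The sample labels give an HTE dose of 200 μg per mL, whereas the study's text gives a higher one, so the dose stays uncertain. With 1 array per condition there were no replicates and no test, and culture, hybridisation and treatment cannot be told apart.

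The FA pathway repairs covalent crosslinks between the strands of DNA. A core complex of FANC proteins, with the conjugating enzyme UBE2T, attaches ubiquitin to the FANCD2 and FANCI pair, and the modified pair then directs nucleases that unhook the crosslink. The break that remains is mended by HR, in which the ends are trimmed to single strands, BRCA2 and the group of XRCC2 and XRCC3 prepare the strands for pairing, RAD54 proteins drive strand invasion, and the BLM complex dissolves the joined molecules. Many of these genes are transcribed mainly in the S and G2 phases of dividing cells.

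Each value is the log2 processed signal of the brightest probe of a gene minus the 75th percentile of its array, so a signal of 0 lies at that percentile. A ratio is the HTE value minus the DMSO value. The software's own error of a ratio was 0.20 to 0.28 on the log2 scale for these genes. The SD of the ratio over replicate spots of 1 probe had a median of 0.05 over 689 probes, and the SD over different probes of 1 gene a median of 0.16 over 3759 genes. None of these errors holds the variation between cultures.

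HTE-treated cells had lower signals for most of the FA and HR genes. Of the 39 genes, 34 had a ratio below 0, against 47.9% of all named genes. The median ratio was -0.66, a signal 1.58-fold lower, while the median over all named genes was 0. At the 2-fold threshold of the study's methods, 12 of the 39 genes (30.8%) were lower, against 2.81% of all named genes. None was at least 2-fold higher, against 4.93% of all named genes. The software's error was set against the ratios of the 39 genes only, so the counts by it have no share over all named genes beside them. By this error, 32 genes were lower by more than the error, and 5 lay within it (FANCL, EME1, ERCC4, MUS81 and RAD50). The other 2, FANCF and RAD51B, were higher by more than the error. Both were below 0 with scaling to spike-in RNA, as were 96.4% of all named genes. The lowest 10% of the ratios of all named genes held 23 of the 39, and the highest 10% held none. The share of lower genes among all named genes past 2-fold was 36.3%, and it moved to 57.0% without scaling and to 99.2% with scaling to the spike-in RNA.

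**Figure D1:**
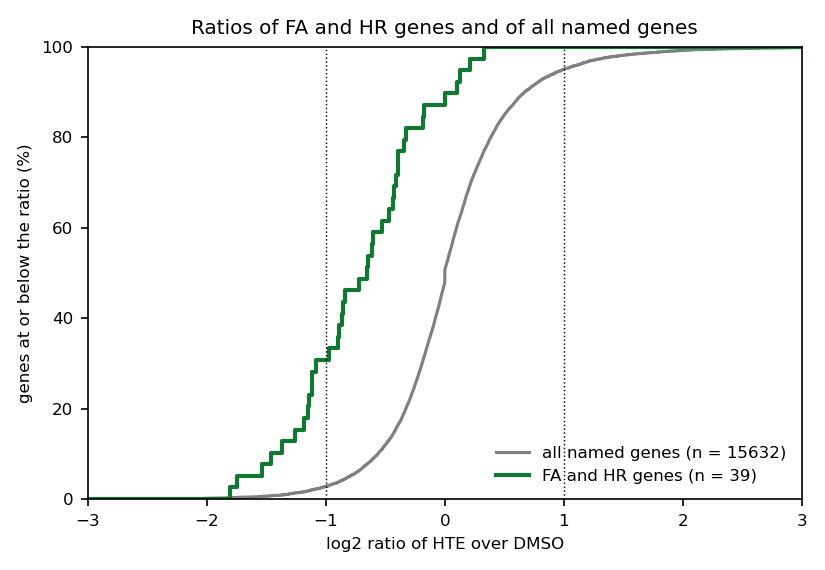
Cumulative share of genes (y axis, %) at or below each log2 ratio of HTE over DMSO (x axis) for the 39 FA and HR genes (green) and all 15632 named genes (grey), with dotted lines at 2-fold. The green curve lies to the left of the grey one, with a median of -0.66 against 0, and ends at 0.33.

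The signals of genes that mark dividing cells moved the same way. All 6 proliferation markers measured were lower, from PCNA (-0.50) to MKI67 (-2.27), with a median of -1.11. Their part in the lower signals of the FA and HR genes was not tested. In RNA from whole cultures, fewer cells in S and G2 phase and less RNA per cell cannot be told apart. The 9 hepatocyte markers examined were all well above background on both arrays and had ratios between -0.36 (FGB) and 0.21 (SERPINA1). None of them was past 2-fold, as were only 2.81% (lower) and 4.93% (higher) of all named genes.

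**Figure D2:**
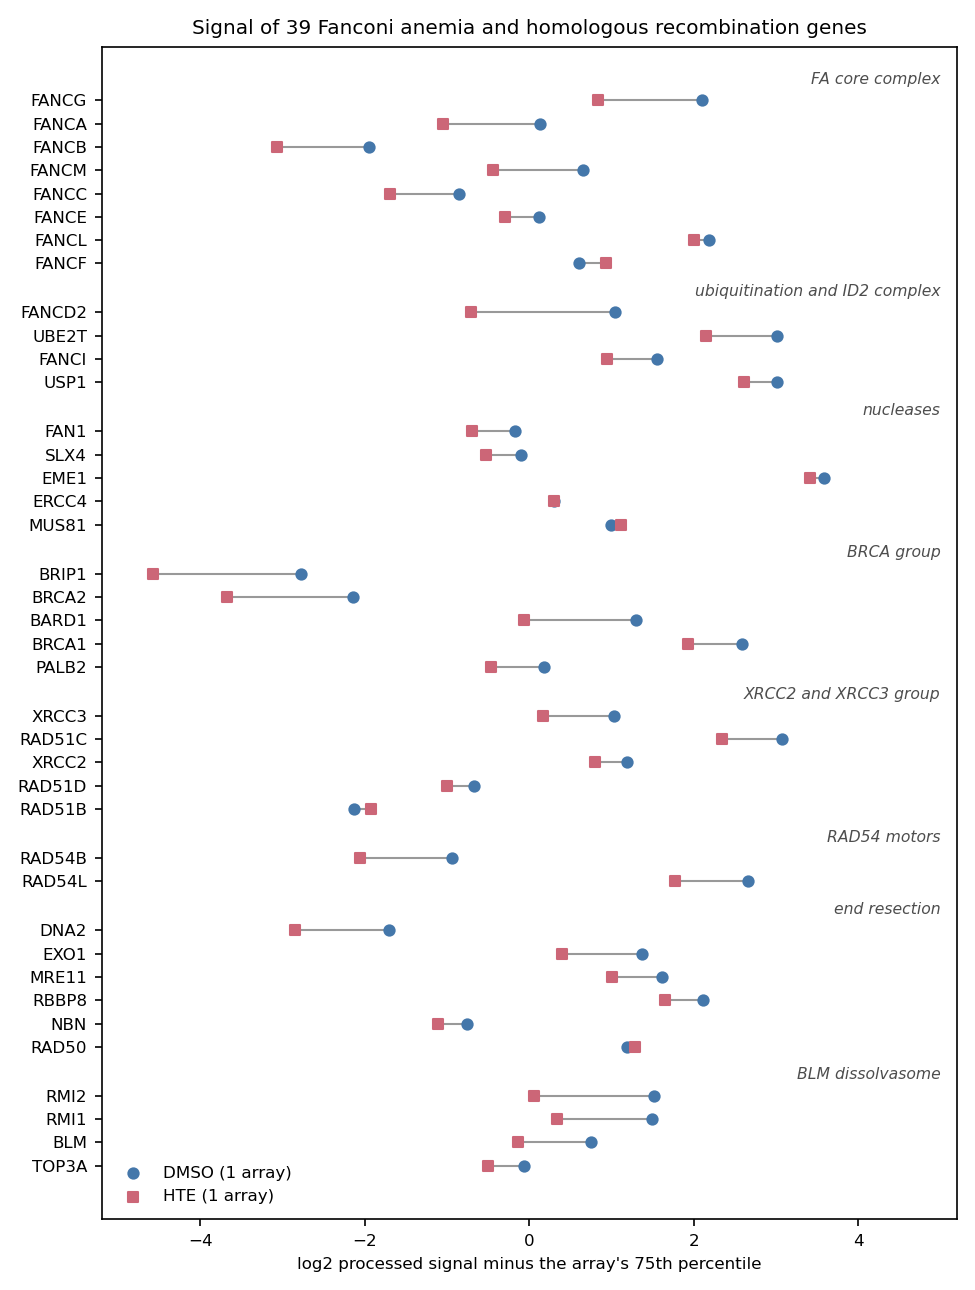
Log2 processed signal minus the 75th percentile of the array (x axis) for each of the 39 genes (y axis), grouped by role, on the DMSO array (blue circles) and the HTE array (red squares). The HTE square lies to the left of the DMSO circle for 34 genes, and to the right for FANCF, RAD51B, MUS81, RAD50 and, by 0.00084, ERCC4. All 5 of these are below 0 with scaling to spike-in RNA, as are 96.4% of all named genes.

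The core complex, which holds the ubiquitin ligase of the pathway, was lower in 7 of its 8 genes, and 4 of them were past 2-fold. FANCG, a scaffold subunit, had a log2 signal of 2.09 in DMSO-treated cells and 0.84 in HTE-treated cells, 2.39-fold lower. FANCA, the subunit most often mutated in Fanconi anemia, went from 0.14 to -1.05, a ratio of -1.18 ± 0.079 (SD over 10 replicate spots). FANCB, encoded on the X chromosome and part of the catalytic module, went from -1.95 to -3.07, 2.17-fold lower. FANCM, the DNA translocase that anchors the complex to chromatin, went from 0.65 to -0.44, 2.12-fold lower. These 4 genes lay at or below the percentile 2.22 of the ratios of all named genes. FANCC was lower by less than 2-fold, with a ratio of -0.84. FANCE, which contacts FANCD2, had a ratio of -0.41. FANCL, the ligase subunit itself, had a ratio of -0.18, smaller than the software's error. FANCF, an adaptor of the complex, was the exception, with a signal of 0.60 in DMSO-treated cells and 0.93 in HTE-treated cells. Its ratio of 0.33 was the highest among all 39 genes, and its other probe gave 0.59. The sign turned with scaling to the spike-in RNA, where 96.4% of all named genes were below 0.

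The promoters of 5 genes are shown because these genes include the lowest and the highest ratio of the 39 and differ in the motifs searched for. The sequences are from RefSeq (GRCh38.p14) and cover the 250 bases before the start of the gene, 5′ to 3′ on the strand of the gene. FANCA (ratio -1.18) lies at chr16:89816648-89816897 on the minus strand, FANCC (-0.84) at chr9:95317710-95317959 on the minus strand, RMI1 (-1.15) at chr9:83980555-83980804 on the plus strand, BRIP1 (-1.81) at chr17:61863529-61863778 on the minus strand, and FANCF (0.33) at chr11:22625824-22626073 on the minus strand. Capitals mark matches on either strand to an E2F motif (TTTCCCGC, TTTCGCGC, TTTGCCGC or TTTGGCGC) or to the CCAAT box (CCAAT, read as ATTGG on the other strand).
FANCA: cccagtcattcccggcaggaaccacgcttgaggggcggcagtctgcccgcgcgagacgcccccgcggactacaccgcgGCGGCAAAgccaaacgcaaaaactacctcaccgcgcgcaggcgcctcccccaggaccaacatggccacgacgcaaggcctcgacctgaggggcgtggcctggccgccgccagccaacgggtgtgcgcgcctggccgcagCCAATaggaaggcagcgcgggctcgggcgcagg
FANCC: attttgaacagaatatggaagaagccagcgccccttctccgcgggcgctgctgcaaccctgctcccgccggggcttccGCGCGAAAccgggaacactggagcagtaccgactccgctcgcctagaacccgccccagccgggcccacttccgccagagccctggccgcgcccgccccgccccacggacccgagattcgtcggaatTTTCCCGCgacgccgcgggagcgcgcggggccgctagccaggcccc
RMI1: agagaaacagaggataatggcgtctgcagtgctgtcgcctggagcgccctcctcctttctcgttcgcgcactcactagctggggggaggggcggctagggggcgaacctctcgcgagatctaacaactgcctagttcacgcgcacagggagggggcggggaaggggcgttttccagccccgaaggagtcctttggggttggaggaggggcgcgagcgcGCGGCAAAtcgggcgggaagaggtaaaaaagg
BRIP1: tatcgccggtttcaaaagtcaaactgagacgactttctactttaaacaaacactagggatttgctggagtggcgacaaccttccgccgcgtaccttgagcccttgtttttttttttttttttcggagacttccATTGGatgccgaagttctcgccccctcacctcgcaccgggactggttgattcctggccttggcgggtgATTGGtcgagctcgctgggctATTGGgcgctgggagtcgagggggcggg
FANCF: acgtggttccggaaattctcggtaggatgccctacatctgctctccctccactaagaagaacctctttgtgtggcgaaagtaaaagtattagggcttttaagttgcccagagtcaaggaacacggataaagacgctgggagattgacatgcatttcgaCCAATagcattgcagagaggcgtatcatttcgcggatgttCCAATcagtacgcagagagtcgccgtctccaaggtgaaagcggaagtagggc
FANCA holds 1 E2F match and 1 CCAAT box here, FANCC holds 2 E2F matches, RMI1 holds 1 E2F match, and BRIP1 and FANCF hold no E2F match but 3 and 2 CCAAT boxes. FANCC and RMI1 have 2 starts each in RefSeq, and the start with the E2F match is shown.

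Promoter entries of 300 bases, 250 before and 50 after the start, were found for 34 of the 39 genes, and not for DNA2, FANCI, NBN, RAD54B and RMI2. An E2F motif was found in 6 of the 34 (17.6%), namely EXO1, FANCA, FANCC, FANCD2, RMI1 and XRCC2. The share was 3.31% of all 35116 promoter entries, 3.99% of all genes with an entry, and 6.23% of the 12093 of these that were measured. The 6 genes with the motif had a median ratio of -1.07, and the 28 without it a median of -0.57. A split of the same direction was seen for the CCAAT box (-0.86 with it, -0.45 without it) and the CHR motif TTTGAA (-0.85 and -0.63). The sets share genes, since FANCA holds both an E2F motif and a CCAAT box, and FANCC an E2F and a CHR motif. RMI1 counts in both the E2F and the CCAAT set, but its E2F motif and its CCAAT boxes lie at different starts. The splits were not tested. Over all measured genes the medians were -0.055 with the E2F motif and 0 without it. The CCAAT box was found in 14 of the 34 genes (41.2%), against 34.6% of all entries, 39.7% of all genes with an entry and 42.6% of those measured, and the CHR motif in 4 (BRIP1, FANCC, UBE2T and USP1, 11.8%), against 15.2%, 18.2% and 14.1%. In the 34 promoters no match overlapped one to another of the motifs, and both strands were searched. A match is a description of letters and not a site of binding.

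The conjugating enzyme and the pair it modifies were all lower. FANCD2 had a log2 signal of 1.04 in DMSO-treated cells and -0.71 in HTE-treated cells, 3.35-fold lower and the second lowest ratio (-1.75) of the 39. Its other 2 probes gave -0.88 and -1.08, so the size of its fall depended on the probe. UBE2T went from 3.01 to 2.15 (ratio -0.86), and FANCI, the partner of FANCD2, from 1.55 to 0.95 (-0.61). USP1, which removes the ubiquitin from FANCD2, had a ratio of -0.39 ± 0.023 (SD over 9 spots). Only FANCD2 of these 4 genes was past 2-fold.

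The nucleases that cut at crosslinks and joined molecules had the median ratio nearest to 0 of the roles, -0.17, and no gene of 5 past 2-fold. Of all named genes, 2.81% were at least 2-fold lower and 4.93% at least 2-fold higher. FAN1 went from -0.17 to -0.70 at its brightest probe (ratio -0.52), and SLX4, a scaffold that recruits nucleases, had a ratio of -0.42. EME1, the partner of MUS81, had a ratio of -0.17. ERCC4, which encodes the XPF endonuclease, had a signal of 0.29 in DMSO-treated cells and 0.30 in HTE-treated cells. MUS81 had 0.99 and 1.12, a ratio of 0.13. The ratios of EME1, ERCC4 and MUS81 were within the software's error. Those of ERCC4 and MUS81 were below 0 without scaling and with scaling to the spike-in RNA, that of ERCC4 also with scaling to the median. Of all named genes, 64.2% were below 0 without scaling, 96.4% with spike-in scaling and 55.8% with scaling to the median.

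The BRCA group had the lowest median ratio of the roles, -1.37, and 3 of 5 genes past 2-fold. BRIP1, the helicase that binds BRCA1, had a log2 signal of -2.77 in DMSO-treated cells and -4.58 in HTE-treated cells. This was 3.50-fold lower, the lowest ratio of the 39 genes, at percentile 0.301 of all named genes, but with normexp background correction its ratio was -1.31 and FANCD2 was the lowest (-1.70). It had the largest software error (0.28). BRCA2, the mediator of strand exchange, went from -2.14 to -3.68, a ratio of -1.54 ± 0.12 (SD over 9 spots). BARD1, the ligase partner of BRCA1, went from 1.30 to -0.07, 2.58-fold lower. BRCA1 itself went from 2.58 to 1.93, a ratio of -0.66 ± 0.10 (SD over 10 spots). PALB2, which joins BRCA1 to BRCA2, went from 0.18 to -0.46, a ratio of -0.65. BRCA1 and PALB2 were thus lower by more than the software's error, but by less than 2-fold.

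None of the 5 genes of the XRCC2 and XRCC3 group, which act together in complexes during HR, was past 2-fold, and their median ratio was -0.40. Among all named genes, 2.81% were at least 2-fold lower and 4.93% at least 2-fold higher. XRCC3 had a ratio of -0.86 and RAD51C, its partner in a complex, one of -0.72. XRCC2 had -0.40 and RAD51D, with which it forms another complex, -0.33. RAD51B had a signal of -2.13 in DMSO-treated cells and -1.92 in HTE-treated cells. Its ratio of 0.21 was as large as the software's error, and was measured at 1 of its 2 probes, since the other was not well above background on the HTE array. The ratio turned below 0 with scaling to the spike-in RNA, where 96.4% of all named genes were below 0.

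The RAD54 motors, ATPases that help a strand to invade a duplex, were both lower at their brightest probes. RAD54B went from -0.94 to -2.06, a ratio of -1.12 ± 0.062 (SD over 8 spots), and RAD54L from 2.66 to 1.77 (-0.90). The second probe of RAD54B, designed on another transcript, went from -2.40 to -2.05, a ratio of 0.34. The 2 probes of RAD54B therefore differed in sign by more than their errors, and their mean ratio was -0.39, not past 2-fold.

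Among genes of end resection, the step that trims a break to single strands, 5 of 6 were lower and DNA2 was past 2-fold. DNA2, a nuclease and helicase, went from -1.71 to -2.85, 2.20-fold lower, but it was not past 2-fold with normexp background correction (ratio -0.95). EXO1, the other nuclease of long-range resection, lay just outside the threshold, from 1.37 to 0.39, a ratio of -0.98 ± 0.037 (SD over 10 spots). The genes that start resection were closer to 0. MRE11 had a ratio of -0.61, RBBP8, which encodes CtIP, -0.47, and NBN -0.35. RAD50, the ATPase of the complex with MRE11 and NBN, had signals of 1.19 and 1.29, a ratio of 0.10 ± 0.034 (SD over 9 spots). The ratio of RAD50 was below 0 without scaling and with scaling to the spike-in RNA, as were 64.2% and 96.4% of all named genes. The 3 genes of the MRE11 complex thus had ratios on both sides of 0, but that of RAD50 was within the software's error.

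All 4 genes of the BLM complex, which takes apart joined DNA molecules without crossing over, were lower, with a median ratio of -1.02. RMI2 went from 1.52 to 0.05, 2.76-fold lower, and RMI1 from 1.49 to 0.34, a ratio of -1.15 ± 0.040 (SD over 10 spots). These are the small subunits that hold the complex together. The helicase BLM went from 0.75 to -0.14 (ratio -0.89), and the topoisomerase TOP3A from -0.07 to -0.50 (-0.44).

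Of the 39 genes, 29 had 1 probe and 10 had several. In 9 of these, more than 1 probe was well above background on both arrays, and in 7 of the 9 these probes had ratios of the same sign. The exceptions were RAD54B and FAN1, whose dimmer probe went from -4.73 to -4.55, a ratio of 0.18. The 3 probes of FANCA gave -1.18, -1.56 and -1.41, all past 2-fold. FANCC gave -0.84 and -0.61, FANCL -0.18 and -0.30, and the 3 probes of RAD51D between -0.11 and -0.33. The second probe of ERCC4 was dimmer and gave 0.51, against 0.00084 at the brightest. Over these 10 genes the median ratio was -0.43 at the brightest probe and -0.053 at the second brightest, with 7 and 5 of the ratios below 0, where the dim second probe of RAD51B enters as a bound of 0. Over the 9 genes without it the medians were -0.52 and -0.11.

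**Figure D3:**
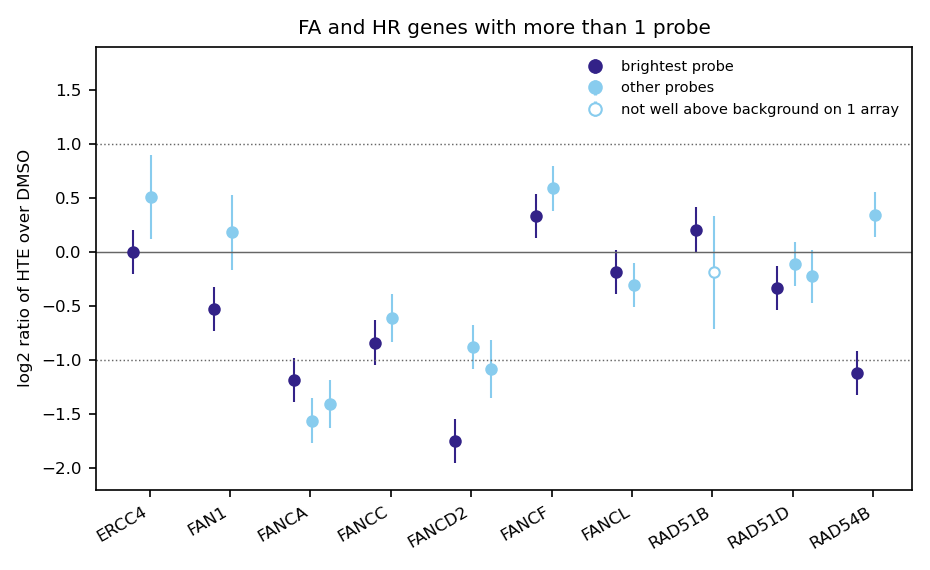
Log2 ratio of HTE over DMSO (y axis) at each probe of the 10 genes with more than 1 probe (x axis); bars are the software's error, dark points the brightest probe and the open point a probe not well above background on the HTE array. All probes of FANCA, FANCC and FANCD2 lie below 0, and the probes of FAN1 and RAD54B lie on both sides of it.

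Other repair pathways were measured on the same arrays. Of 40 further genes of FA, HR and replication stress, 33 had a ratio below 0 and 12 were at least 2-fold lower, with a median of -0.41, and the highest ratio was that of ERCC1 (0.66), whose protein is the partner of XPF. The median was -0.28 in 13 genes of end joining, from POLQ (-1.55), the polymerase of the microhomology route, to LIG4 (0.95), the ligase of the classical route. LIG4 was dim at its 1 probe, with log2 signals of -5.31 in DMSO-treated cells and -4.35 in HTE-treated cells. The lowest signals counted as well above background were -5.91 and -5.24. In mismatch repair 6 of 7 genes were below 0, with a median of -0.39, from PMS1 (-1.05) to MLH3 (0.38). In nucleotide excision repair none of the 21 measured genes was past 2-fold, and the median was -0.056, from DDB2 (-0.56) to CDK7 (0.36). In base excision and single strand break repair none of 20 genes was past 2-fold, and the median was -0.063, from NEIL3 (-0.99) to NEIL1 (0.78), both DNA glycosylases. Of all named genes, 2.81% were at least 2-fold lower and 4.93% at least 2-fold higher. No gene past 2-fold in lists of 20 or 21 genes is thus near the share over all genes. At the brightest probes the FA and HR genes had the lowest median of the repair lists, -0.66. At the second brightest probes this order did not hold. The median there was -0.053 in 10 FA and HR genes, and higher, 0.095, in 5 of base excision and single strand break repair. It was -0.46 in 13 of the further genes, -0.48 in 3 of end joining, -0.46 in 4 of mismatch repair and -0.31 in 5 of nucleotide excision repair. These differences between lists were not tested, since the genes of 2 arrays are not replicates.

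**Figure D4:**
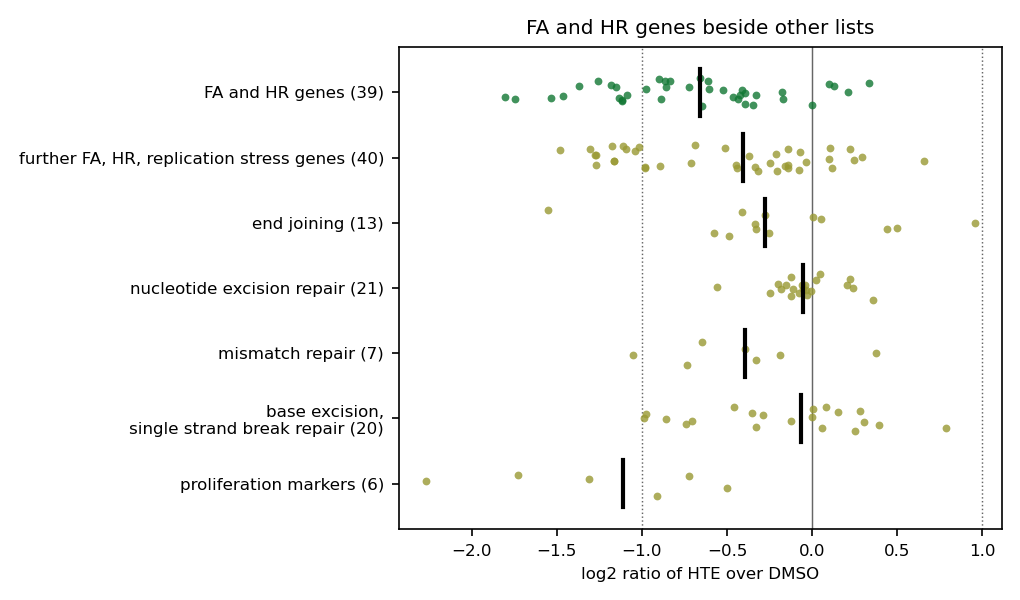
Log2 ratio of HTE over DMSO (x axis) of each measured gene (points) in the 39 FA and HR genes and 6 other lists (y axis, number of genes in parentheses), with the median of each list as a black bar and dotted lines at 2-fold. The median of the FA and HR genes is -0.66, against -0.056 for nucleotide excision repair and -1.11 for the proliferation markers.

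Several FA and HR genes start back to back with a gene on the other strand. In the promoter table, 10 of the 39 genes had such a neighbour, measured here, whose start lay within 500 bases. Both arrays gave signals well above background for both genes in 8 pairs. The median ratio of the FA and HR genes in these pairs was -0.65, and that of their neighbours -0.17. None of the 8 neighbours was at least 2-fold lower, against 2.81% of all named genes, so this count is near that share. RMI1 (-1.15) starts 144 bases from HNRNPK (-0.17), which encodes an abundant RNA-binding protein. FANCB (-1.12) starts 352 bases from MOSPD2 (0.46), and MRE11 (-0.61) starts 140 bases from ANKRD49 (0.29). The ratios of the other neighbours were -0.42 for ZFYVE21 beside XRCC3, -0.32 for NBR2 beside BRCA1, -0.17 for DCTN5 beside PALB2, and 0.05 for DNASE1 beside SLX4. The neighbour had the higher ratio in 7 of the 8 pairs, and the median over all named genes was 0. Since the FA and HR genes of these pairs were already low, most other genes would also lie higher, whether neighbours or not. The count of 7 is therefore no result about the neighbours. The exception was EME1 (-0.17) and MRPL27 (-0.19), which differed by less than the software's error. The neighbours of BRCA2 (ZAR1L) and TOP3A (SMCR8) were not well above background on both arrays.

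**Figure D5:**
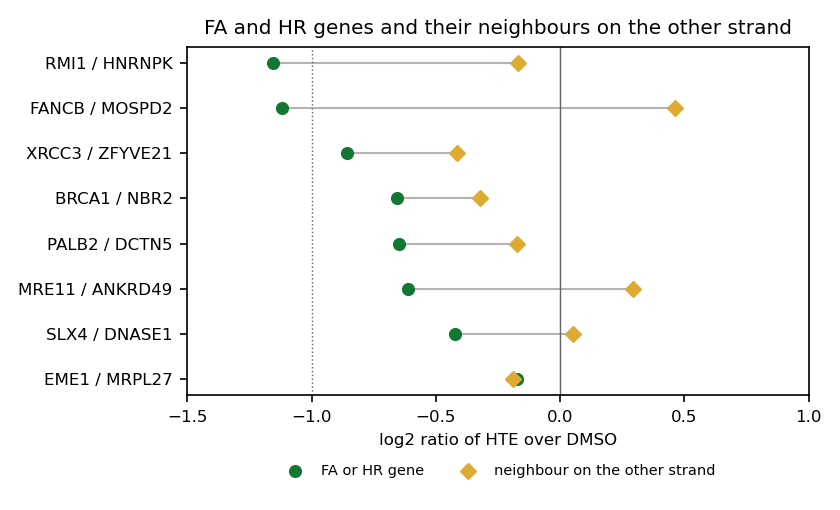
Log2 ratio of HTE over DMSO (x axis) of 8 FA or HR genes (green circles) and of the genes that start within 500 bases of them on the other strand (yellow diamonds), 1 pair per row. The diamond lies to the right of the circle in 7 pairs, at up to 0.46, and beside it for EME1 and MRPL27. The median over all named genes is 0.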

How the data were processed

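Gene expression in HepG2 cells was measured on 1-colour (Cy3) Agilent human arrays, 1 for DMSO and 1 for HTE, with the same grid and scan time in both headers. What the authors deposited is scanner output from Agilent Feature Extraction (version 11.5.1.1 by the file headers, 10.7 by the labels). The deposited processed signal is an intensity from which the software had removed background and spatial trend, with small positive values in place of the lowest, and it was not scaled between arrays. On the DMSO and HTE arrays, 60.6% and 56.6% of the 58717 spots that are not controls were well above background, none was saturated, and 440 and 459 outlier spots were left out.

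From the deposited intensity, log2 was taken, the 75th percentile of each array subtracted (a signal of 4020 and 3570), and the spots of a probe averaged. Probes were kept when at least 0.5 of their spots were well above background on 1 array. Where a probe was dim on the other array, its ratio was a bound (996 of 15632 named genes, none of the 39). The RefSeq gene table of GRCh38.p14 named 28174 of 50599 probes. The headers name an older build, so no coordinates of probes are given. The brightest probe stood for a gene, and 2-fold was the threshold. Each of the 39 genes is named with its ratio, with both signals for those past 2-fold, above 0 or with probes of opposite sign, and of each other list the highest and the lowest ratio are named, except for values not reported here.

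The 39 genes, their roles, the motifs and the other lists were chosen with earlier results of these data known, and the neighbouring genes were added after the ratios of the 39 had been seen. The alternatives covered background correction (limma normexp on the median spot signal, offset 50, as the files hold no mean), scaling, the filter on dim probes, outlier spots, the probe of a gene and the threshold. The steps were tested on simulated data. Python 3.11.15, numpy 2.4.6, pandas 2.3.3, matplotlib 3.10.9, R 4.3.3 and limma 3.58.1 were used.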

Additional observations from a re-analysis of the deposited data

How the results depend on the processing

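The direction of the median of the 39 genes was below 0 under all 12 processing alternatives, and no gene was past 2-fold higher under any of them. The median was -0.74 with scaling to the median, -0.83 without scaling, where all genes had a median of -0.15, and -1.88 with scaling to the spike-in RNA, where all genes had one of -1.20. These scalings shift every gene by 1 constant, except for the 996 genes whose ratio is a bound. Spike-in scaling put 38 of the 39 genes past 2-fold lower, with 10691 of all genes lower and 81 higher. Without scaling 18 of the 39 and 724 of all genes were lower. With the second brightest probe, which 10 of the 39 genes have, 5 were below 0, 1 was past 2-fold lower, the median was -0.053, and RAD54B, and with it the RAD54 motors, went to 0.34. Of all genes with a second probe, 106 were lower and 189 higher. At 1.5-fold, 23 of the 39 genes were lower, beside 1472 lower and 1933 higher of all genes. At 3-fold, 2 were lower (BRIP1 and FANCD2), beside 79 lower and 247 higher of all genes. The main counts were 12 of the 39, and 439 lower and 770 higher of all genes. Beyond the SD over replicate spots, 13 of the 39 ratios moved with normexp correction, 6 with quantile normalization and 10 with probes averaged, and none of these turned sign, but DNA2 was no longer past 2-fold with normexp correction and RAD54B with probes averaged (11 of the 39 each). The causes of these moves were not tested. Among the 39 genes, signal over background limits BRIP1 and the dimmer probes of ERCC4, FAN1 and RAD51B most. No paired analysis was possible because each treatment was profiled on a single array.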

Other observations

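Markers of other cell types were examined as a check on the labelled line. Of 7 such genes, 5 gave a signal well above background on at least 1 array, and CD3E and COL1A2 did not. PTPRC, a leukocyte gene, had a log2 signal of -0.77 on the DMSO array and -0.64 on the HTE array. PECAM1, an endothelial gene, had the lowest ratio of these genes (-1.82), and DES, a muscle gene, the highest (0.70). Their part in the values of the FA and HR genes was not tested.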
